A study of Rattus norvegicus with 6 samples.

Results

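The changes in gene expression at the border of an infarct were described here for young adult rats on day 3 after a stroke, gene by gene, as the level in perilesional tissue minus the level in healthy brain of naive rats of about the same age. The stroke group comprised male Sprague-Dawley rats of 3 to 4 months in which the middle cerebral artery had been lifted for a time with a tungsten hook, an operation that stops and then restores flow to its territory. The naive group comprised male Sprague-Dawley rats of 3 to 5 months with no stroke, and no sham operation is named for them. RNA from 19 stroke rats and from 15 naive rats was pooled, and 200 ng of total RNA per pool was amplified and hybridised to 1 Affymetrix whole-transcript array on each side. The 2 arrays compared belong to a set of 6, which also holds pools of young rats at 14 d, of naive rats of 18 to 20 months and of rats of 19 to 20 months at 3 d and 14 d. The stroke samples were microdissected from the tissue around the infarct, whereas the brain region of the naive samples is not named.

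A gene entered through the probe sets that carried 1 gene symbol, with the one that had the highest 6-array mean taken for each gene, which gave 14497 genes. Of these, 10947 reached the 40th percentile of an array on at least 1 of the 6 arrays, and 3550 did not. Values are log2 levels, so a difference of 1 is a 2-fold change, and a level is only ever compared with the level of the same gene on another array. With 1 pooled array on each side there is no replicate and no test, the spread between animals is not seen, and "higher" or "lower" describes these pools. In bulk tissue, more cells of a type and more RNA per cell cannot be told apart. The nearest yardstick is the pair of naive arrays from young and aged rats, which differed by a median of 0.09 in either direction, by 0.33 at the 95th percentile, and by 2-fold or more at 18 genes, or 0.164%. That yardstick holds age and pool together and is no estimate of error.

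When flow to brain tissue is lost, neurons in the core die within hours, and the surviving rim is then reshaped over days. Resident microglia and incoming monocytes clear dead cells and myelin, astrocytes turn on intermediate filaments and secreted protease inhibitors to wall off the lesion, and several cell types re-enter the cell cycle. Day 3 falls in the phase in which phagocytes gather and glia divide, before the scar is complete.

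On day 3, 760 of the 10947 genes (6.94%) were at least 2-fold higher than in naive brain and 38 (0.347%) were at least 2-fold lower. Among the higher genes 196 were past 4-fold and 32 past 8-fold, whereas 2 genes were past 4-fold on the lower side. The median gene differed by -0.01, and the 5th and 95th percentiles lay at -0.55 and 1.23, so the upper tail was the longer. Without the filter on low levels 779 of all 14497 genes (5.37%) were 2-fold higher and 41 (0.283%) were lower, 1510 (10.4%) were at least 1.5-fold higher and 591 (4.08%) at least 1.5-fold lower, and the median was -0.06. Lists of genes are described below over all their members on the array and read against these unfiltered shares. Of the 760 higher genes, 257 (33.8%) lay below the 40th percentile of the naive array, so their folds start from the low end of the scale.

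**Figure D1:**
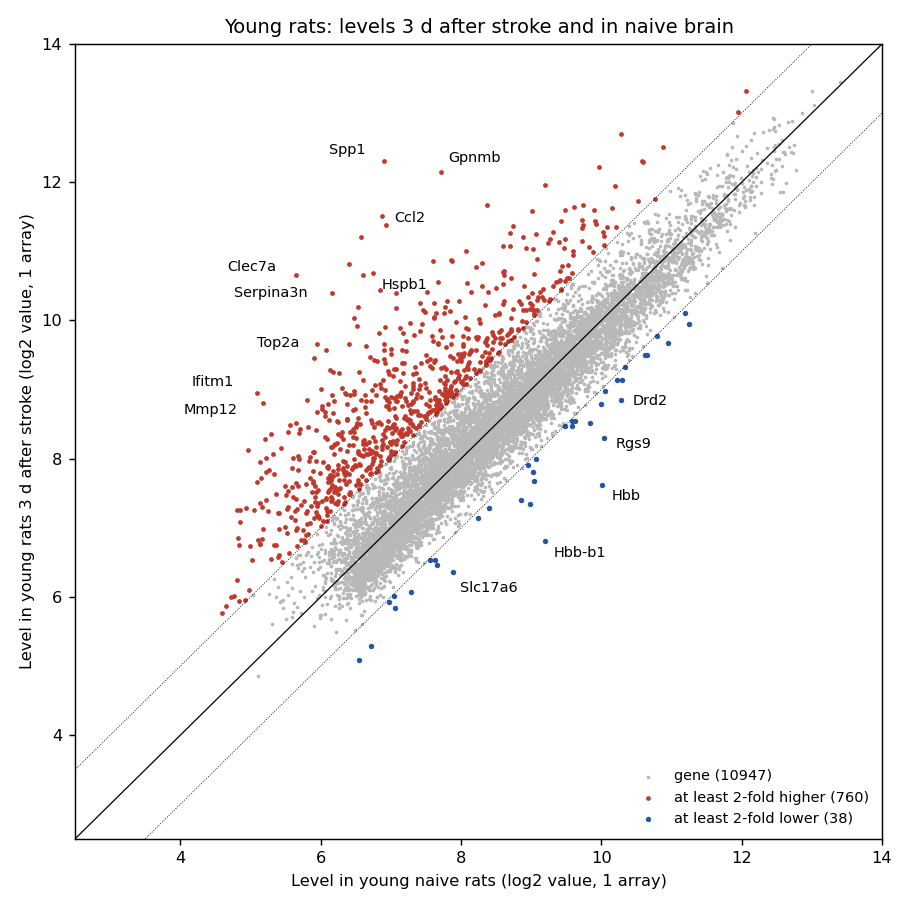
Level of each of 10947 genes in young naive rats (x axis, log2) and in young rats 3 d after stroke (y axis, log2), 1 pooled array each. The solid line marks equal levels and dotted lines mark 2-fold; 760 genes (red) lie above the upper dotted line and 38 (blue) below the lower one.

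Genes of phagocytes that take up debris were among the largest rises. Spp1, which encodes the secreted matrix protein osteopontin, read 6.90 on the naive array and 12.31 at 3 d, a difference of 5.41 or 42.6-fold. Clec7a, the beta-glucan receptor Dectin-1, read 5.64 and 10.66, a difference of 5.02 or 32.4-fold. Lgals3, the galactose-binding lectin galectin-3, read 6.57 and 11.21. Gpnmb, a glycoprotein of lysosome-rich macrophages, read 7.72 and 12.14. All 4 are among the 15 largest rises taken by the naming rule described below, which ranks on this same difference. Timp1 (4.63), Ccl2 (4.45) and the reactive astrocyte gene Serpina3n (4.24) are among the 15 too. The 15 rises ran from 3.60 for Cybb to the 5.41 of Spp1. Of the 24 genes on a list of phagocytic macrophage genes, 20 were 2-fold higher (83.3%, against 5.37% of all genes), 24 lay above 0 and the median was 2.0.

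Genes of the chemokine system divided. Ccl2, the main attractant of monocytes, read 6.93 in naive tissue and 11.38 at 3 d, a difference of 4.45 or 21.9-fold. Its receptor Ccr2 read 5.53 and 7.27. Cxcl16, an attractant for T and NKT cells that also scavenges oxidised lipid, read 7.61 and 10.05, and Ccl6 read 5.69 and 8.0. These are the genes past 2-fold that lead the list, yet 23 of its 31 members did not reach 2-fold and the list median was 0.14. Among chemokine receptors 2 of 17 were 2-fold higher (11.8%, against 5.37% of all genes), Ccr2 and the fractalkine receptor Cx3cr1 (10.02 and 11.28). The receptor median was -0.06. It was 0.07 after quantile normalization and 0.75 over the 3 members that passed a filter at the 60th percentile. That filter counts the stroke arrays, so it favours members that are high after stroke. Of 27 interleukins and growth cytokines 5 were 2-fold higher with a median of 0.15: Tgfb1 read 7.68 and 9.67, Il18 read 5.89 and 7.82, and Csf1, the growth factor of microglia, read 7.94 and 9.26. Il1b, named after its value was seen, read 6.54 and 6.71.

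Markers of resident microglia were higher together, although by less than the phagocyte genes. Of 14 genes on that list, 12 were 2-fold higher and the median was 1.56. P2ry12, the purinergic receptor of surveying microglia, read 9.17 in naive tissue and 10.46 at 3 d. Csf1r, the receptor for Csf1, read 9.73 and 11.34, and Aif1, which encodes Iba1, read 7.41 and 9.06. Tmem119 was the exception among the 5 defining markers, at 8.25 and 8.76. The largest difference on the list belonged to Fcrl2, the rat entry for the microglial Fc receptor-like gene Fcrls, at 6.40 and 10.82. Itgam (6.80 and 9.41), Slc2a5 (7.58 and 9.77) and Trem2 (8.06 and 10.05) encode the CD11b integrin chain, a fructose transporter of microglia and a lipid-sensing receptor.

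Defining markers of macrophages, neutrophils and T cells were read for the same tissue. The macrophage markers Cd68, Mrc1, Cd163 and Gpnmb were each 2-fold higher, and their mean level went from 6.85 to 9.82. Bulk levels do not show whether the cells that carry them were resident or came from the blood. All 5 neutrophil markers (S100a8, S100a9, Mpo, Elane and Cxcr2) lay below the 40th percentile at 3 d, with a mean of 5.45 in naive tissue and 5.47 after stroke. All 5 T cell markers (Cd3e, Cd3g, Cd3d, Cd2 and Lck) lay below it on both arrays, with means of 5.47 and 5.33. Of the 16 genes on a lymphocyte list 2 were 2-fold higher, and its median was -0.10. That sign changed under 3 alternatives. The median became 0.01 after quantile normalization and 0.13 over the 7 members that passed a filter on the mean of the 2 arrays. Over the 3 that passed at the 60th percentile it was 1.62. Both filters count the 3 d array, so a gene that is high only after stroke can pass them. Medians over the members kept therefore lean upward and are no check of the sign. The 2 lymphocyte genes past 2-fold were the chains of the CD8 co-receptor: Cd8a read 6.31 and 8.28, and Cd8b read 5.77 and 7.39. Cd4, which rat macrophages also carry, read 8.23 and 9.22. Of 19 genes that monocytes or neutrophils express, 13 were 2-fold higher with a median of 1.75, led by Lcn2 (6.52 and 9.92), an iron-trapping lipocalin, and Fcgr2b (6.65 and 9.63), an inhibitory receptor for antibody.

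Complement genes were higher from the start of the classical pathway to its receptors. Of 18 members on the array 11 were 2-fold higher, and the median was 1.51. C1qc, a chain of the recognition protein C1q, read 7.67 in naive tissue and 10.55 at 3 d, and the chains C1qa and C1qb read 8.72 and 10.61 and 8.14 and 10.42. Serping1, the inhibitor of the C1 proteases, read 7.45 and 10.15. The central component C3 read 7.99 and 9.46, and C3ar1, the receptor for its fragment C3a, read 6.83 and 9.81. Pattern recognition genes were placed alike: 12 of 16 toll-like receptors and adaptors were 2-fold higher with a median of 1.51, led by the co-receptor Cd14 (5.94 and 8.68) and by Unc93b1 (6.90 and 9.45), which escorts nucleic acid sensing receptors to endosomes. Of 12 inflammasome genes 6 were 2-fold higher, among them Casp1 (6.37 and 8.56), Pycard (6.95 and 8.85) and Casp4 (5.99 and 7.79). The superoxide-producing oxidase of phagocytes was represented by 5 of 12 NADPH oxidase genes past 2-fold, and the other 7 did not reach the filter on low levels. Over all 12 the median was 0.10, and 5 lay below 0. The catalytic chain of the oxidase, Cybb, read 6.84 and 10.45. The partner chains Cyba (7.32 and 9.09) and Ncf1 (6.79 and 8.93) and the small GTPase Rac2 (7.16 and 9.57) were also higher.

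Lysosomal and lipid-handling genes followed the phagocyte genes. Of 41 lysosomal genes 20 were 2-fold higher, and the median was 0.88. Cd68, a lysosomal membrane protein of macrophages, read 6.53 and 10.20, and the proteases Ctsc (7.86 and 10.87) and Ctsz (8.22 and 10.77) came next. Grn, which encodes progranulin, read 9.48 and 11.60. Of 27 genes for cholesterol efflux and lipid storage 11 were 2-fold higher with a median of 0.43. Plin2, which coats lipid droplets, read 7.21 and 9.70, Soat1, which makes cholesterol esters, read 8.10 and 9.87, and the exporter Abca1 read 9.04 and 10.68. Cholesterol synthesis lay slightly on the other side, with 18 of 20 genes below 0, none past 1.5-fold and a median of -0.21, led by Fdft1 (10.47 and 9.93), the squalene synthase.

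**Figure D2:**
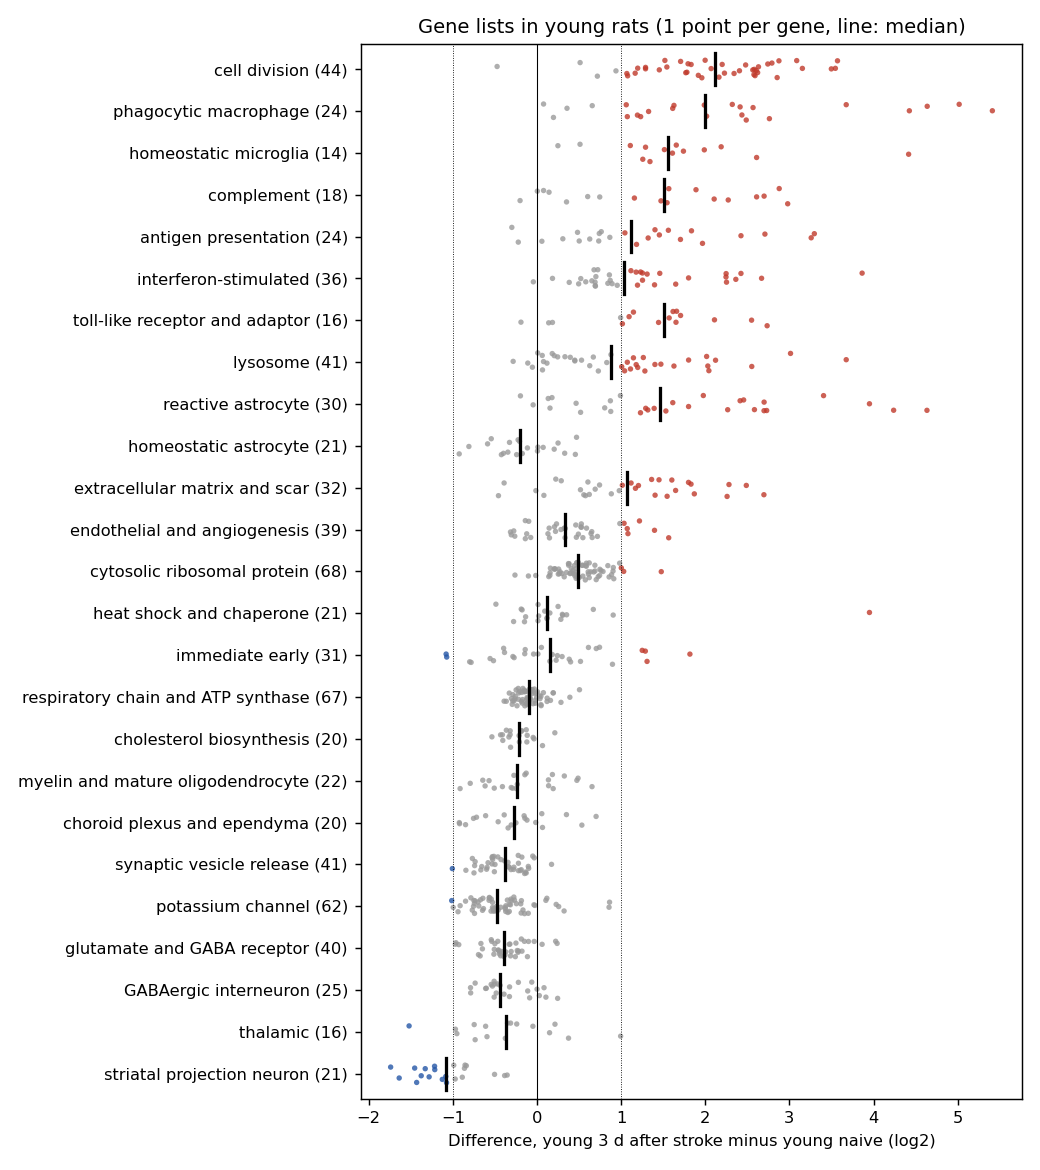
Log2 difference between young rats 3 d after stroke and young naive rats (x axis) for every member on the array of 25 gene lists (rows, number of members in brackets); black lines are medians and dotted lines mark 2-fold. Medians run from 2.12 for cell division to -1.08 for striatal projection neuron genes.

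Cell division genes held the highest median of the 60 lists over all members on the array, although the monocyte and neutrophil list stood higher over members that passed a filter at the 60th percentile (2.68 against 2.59) or on the mean of the 2 arrays (2.68 against 2.12), where the median of the 5 NADPH oxidase genes that passed was also higher. These filters count the 3 d array, so they favour members that are high after stroke. Of 44 cell division members 40 were 2-fold higher (90.9%), 43 lay above 0 and the median was 2.12. Top2a, the topoisomerase that untangles chromosomes, read 6.07 in naive tissue and 9.57 at 3 d, an 11.3-fold difference. Pttg1, the securin that holds back the separation of sister chromatids, read 5.91 and 9.45. Kif20a, a kinesin of cytokinesis, read 4.97 and 8.12, and Rrm2, a subunit of the reductase that makes deoxynucleotides, read 6.47 and 10.04. On the naive array 36 of the 40 lay below the 40th percentile, so most of these folds start from the low end of the scale. Genes of DNA replication and of the step into S phase differed by less: 13 of 41 were 2-fold higher and 28 at least 1.5-fold, with a median of 0.76. The helicase subunits Mcm6 (6.29 and 8.33), Mcm5 (6.24 and 8.22) and Mcm2 (7.32 and 9.01) and the polymerase Pole (5.65 and 7.41) led that list. At 14 d, read against the same naive array, the medians of the lists were 0.20 for cell division and 0.14 for replication, and Top2a stood at 6.89.

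The upstream windows of the division and interferon genes were read from the RefSeq promoter table of assembly GRCr8, as the 250 bases before the annotated start on the gene's own strand. The table matched 9040 of the 10947 genes. Shown first are the 3 division genes with the largest difference among those whose window holds both a cell cycle homology region (TTTGAA) and a CCAAT box, the element bound by NF-Y. Both were searched on either strand and are printed in capitals, so TTCAAA and ATTGG are the same motifs on the opposite strand. The windows are chr10:28406327-28406576 for Pttg1, chr10:84473094-84473343 for Top2a and chr2:111966627-111966876 for Ect2, a guanine nucleotide exchange factor of cytokinesis, and all 3 genes lie on the minus strand.
Pttg1: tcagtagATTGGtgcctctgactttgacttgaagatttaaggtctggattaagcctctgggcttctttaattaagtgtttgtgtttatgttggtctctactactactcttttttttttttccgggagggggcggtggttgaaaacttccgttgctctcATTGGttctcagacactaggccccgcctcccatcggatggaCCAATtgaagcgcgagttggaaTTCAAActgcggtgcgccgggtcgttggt
Top2a: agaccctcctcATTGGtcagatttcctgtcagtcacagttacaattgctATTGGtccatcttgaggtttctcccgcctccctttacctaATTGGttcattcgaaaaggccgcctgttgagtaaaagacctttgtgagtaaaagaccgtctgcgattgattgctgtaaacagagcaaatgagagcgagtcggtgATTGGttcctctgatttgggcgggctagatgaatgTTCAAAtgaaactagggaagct
Ect2: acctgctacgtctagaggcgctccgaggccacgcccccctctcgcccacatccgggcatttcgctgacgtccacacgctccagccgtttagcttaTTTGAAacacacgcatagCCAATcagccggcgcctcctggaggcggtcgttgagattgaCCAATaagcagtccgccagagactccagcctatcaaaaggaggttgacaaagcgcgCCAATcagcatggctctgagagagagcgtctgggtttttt
In Top2a the homology region covers bases 22 to 17 before the start with the nearest CCAAT box at 57 to 53, and in Pttg1 bases 29 to 24 with the nearest box at 51 to 47. The window of Pttg1 holds 3 CCAAT boxes, that of Top2a 4 and that of Ect2 3. In Ect2 the homology region lies farther out, at bases 155 to 150. Both motifs stood together in 14 of 34 division genes with a window (41.2%), in 359 of all 9040 (3.97%), in 55 of the 605 higher genes with a window (9.09%) and in 0 of 32 replication genes. By itself the CCAAT box was common: 24 of 34 division genes (70.6%), 17 of 32 replication genes (53.1%) and 3218 of all 9040 (35.6%) held it. A match is a run of letters and does not show that a factor binds.

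The interferon-stimulated genes are shown by the same rule, as the 3 with the largest difference among those whose window holds the interferon-stimulated response element, searched on either strand as GAAA, any 2 bases and GAAA again, and printed in capitals. The windows are chr1:205541759-205542008 on the minus strand for Ifitm3, chr1:205482349-205482598 on the minus strand for Ifitm2 and chr2:234005477-234005726 on the plus strand for Gbp2.
Ifitm3: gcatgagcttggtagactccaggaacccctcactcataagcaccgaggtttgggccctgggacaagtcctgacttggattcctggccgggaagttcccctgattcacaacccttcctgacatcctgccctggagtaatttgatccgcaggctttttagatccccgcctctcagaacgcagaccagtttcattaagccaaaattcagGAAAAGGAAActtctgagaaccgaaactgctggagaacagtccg
Ifitm2: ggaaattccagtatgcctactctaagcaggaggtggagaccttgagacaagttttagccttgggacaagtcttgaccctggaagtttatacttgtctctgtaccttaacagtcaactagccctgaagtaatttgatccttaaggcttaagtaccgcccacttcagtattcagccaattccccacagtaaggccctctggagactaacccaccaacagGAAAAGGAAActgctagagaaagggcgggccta
Gbp2: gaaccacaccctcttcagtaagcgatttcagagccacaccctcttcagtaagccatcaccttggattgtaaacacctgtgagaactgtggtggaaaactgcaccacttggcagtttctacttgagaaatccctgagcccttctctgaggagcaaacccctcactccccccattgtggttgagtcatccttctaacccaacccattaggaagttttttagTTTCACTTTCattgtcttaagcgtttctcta
The element ends within 35 bases of the start in all 3, at bases 44 to 35 in Ifitm3, 33 to 24 in Ifitm2 and 31 to 22 in Gbp2. In Ifitm3 and Ifitm2, neighbouring members of one family, it has the same letters, GAAAAGGAAA. In Gbp2 it reads on the other strand, as TTTCACTTTC. The element stood in 17 of 25 interferon-stimulated genes with a window (68.0%), in 7 of 20 antigen presentation genes (35.0%), in 39 of the 605 higher genes (6.45%), in 2 of the 32 lower genes (6.25%) and in 238 of all 9040 (2.63%). Of the other motifs searched, the AP-1 site (TGANTCA) stood in 7.60% of the higher genes and 4.51% of all, and the NF-kappaB site (GGGA, any 1 base and TTTCC) in 0.826% and 0.42%.

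**Figure D3:**
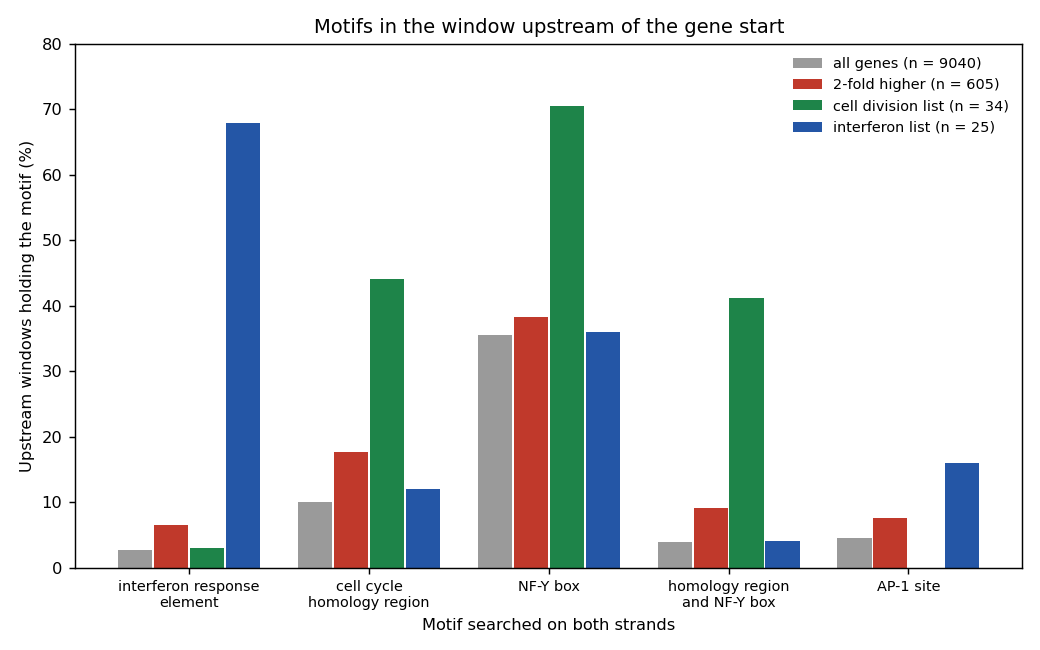
Share of upstream windows that hold each motif on either strand (y axis, percent; n is the number of genes with a window) for all genes, genes at least 2-fold higher at 3 d in young rats, and the cell division and interferon lists. The interferon element stood in 68.0% of the interferon list and 2.63% of all genes, and the homology region with a CCAAT box in 41.2% of the cell division list and 3.97% of all genes.

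The levels of the interferon-stimulated genes were themselves higher. Of 36 members 18 were 2-fold higher and 30 at least 1.5-fold, with a median of 1.03. Ifitm1, of the membrane proteins that block entry of viruses, read 5.09 in naive tissue and 8.95 at 3 d. Ifitm3 read 7.42 and 9.84, Ifitm2 read 6.98 and 9.23 and the guanylate-binding protein Gbp2 read 6.40 and 8.20. Ifi47, an interferon-inducible GTPase, read 6.76 and 9.43, and the antiviral GTPase Mx1 read 5.68 and 8.04. At 14 d Mx1 stood at 9.62 and the list median, against the same naive array, at 1.85. Family members with near-identical sequence may share probes, so single values of the Ifitm, Gbp, Hbb and RT1 genes are uncertain.

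Antigen presentation genes followed, with 13 of 24 members 2-fold higher and a median of 1.11. Cd74, the invariant chain that guides class II molecules, read 8.37 in young naive tissue and 11.67 at 3 d, a 9.82-fold difference. The class II chains RT1-Da (6.40 and 9.66) and RT1-Ba (6.55 and 9.26) and the peptide editor RT1-DMb (7.62 and 10.04) were higher as well. In the class I pathway the peptide transporter Tap1 read 7.09 and 8.27, the immunoproteasome subunit Psmb8 read 6.95 and 8.0, and the light chain B2m read 11.93 and 12.67. The 30 constitutive proteasome genes on a list of their own kept within 1.5-fold, with a median of 0.07.

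Reactive astrocyte genes were higher while the genes of resting astrocyte function lay on both sides of 0. Of 30 reactive genes 19 were 2-fold higher with a median of 1.46. Timp1, an inhibitor of matrix metalloproteinases, read 6.87 in naive tissue and 11.51 at 3 d, a 24.8-fold difference. Serpina3n, a secreted protease inhibitor that marks reactive astrocytes, read 6.16 and 10.40. The intermediate filament genes Gfap (9.96 and 12.23), Vim (10.28 and 12.69) and Nes (6.62 and 8.23) were also past 2-fold. Hspb1, a small heat shock protein, read 6.74 and 10.69, and it stood alone among 21 heat shock and chaperone genes, of which 18 lay within 1.5-fold and whose median was 0.12. Of 21 homeostatic astrocyte genes 8 lay above 0 and none was 2-fold higher or lower, with a median of -0.21. On that list 3 were at least 1.5-fold lower (14.3%, against 4.08% of all genes). These were Agt (9.67 and 8.75), the precursor of angiotensin, the GABA transporter Slc6a11 (10.39 and 9.58) and the gap junction gene Gjb6 (9.27 and 8.68). Besides Gfap, the defining astrocyte markers Aqp4 (11.10 and 11.43), Slc1a3 (11.15 and 11.40) and Gja1 (10.51 and 10.97) read slightly higher. The remaining marker Aldh1l1 read 7.83 and 7.84.

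Matrix and vascular genes were higher in part. Of 32 matrix and scar genes 17 were 2-fold higher with a median of 1.07. Fn1, which encodes fibronectin, read 8.59 in naive tissue and 11.08 at 3 d, and Postn, which encodes periostin, read 6.02 and 8.72. Lum (5.58 and 7.87) encodes a proteoglycan of collagen fibrils and Thbs1 (6.88 and 9.14) a matrix protein that activates TGF-beta. Of 27 metalloproteinase and inhibitor genes 10 were 2-fold higher: Mmp12, the macrophage elastase, read 5.18 and 8.80, Mmp8 read 5.43 and 8.16 and Mmp19 read 5.90 and 8.10. Fewer endothelial genes were past 2-fold, 6 of 39 (15.4%, against 5.37% of all genes) with a median of 0.34. Among them were Angptl4 (6.74 and 8.31), the TGF-beta co-receptor Eng (8.95 and 10.35), Tie1 (7.95 and 9.17) and Pecam1 (7.77 and 8.85). Pecam1 fell just short of 2-fold after quantile normalization. Kdr, the main receptor for the growth factor Vegfa, read 7.48 and 7.82, and Vegfa itself 8.96 and 8.65. Pericyte and smooth muscle genes held 5 of 18 past 2-fold (27.8%, against 5.37% of all genes) with a median of 0.48, led by Anpep (7.27 and 9.96) and Tagln (8.09 and 10.55). Among the 5 defining pericyte markers only Pdgfrb (8.67 and 9.70) was 2-fold higher, a call it lost after quantile normalization. Rgs5 (10.62 and 10.69) and Kcnj8 (7.35 and 7.46) lay near their naive levels. The fibroblast markers Dcn (8.90 and 10.50) and Col1a1 (8.18 and 9.30) were higher, and 10 of 26 meningeal and fibroblast genes were past 2-fold with a median of 0.62, which read 1.40 at 14 d against the same naive array.

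Calcium-binding, heme and metal genes were higher in part. S100a11 read 6.61 and 10.66, a difference of 4.05 that fell to 2.32 when its probe sets were averaged. S100a4 read 6.70 and 9.47, Anxa2 read 7.87 and 10.86 and Anxa1 read 6.47 and 8.98, and 10 of 24 members of the S100 and annexin families were 2-fold higher with a median of 0.48. Hmox1, which breaks down heme, read 6.12 in naive tissue and 8.56 at 3 d. The copper ferroxidase Cp read 7.33 and 9.79, and the phagosomal metal exporter Slc11a1 read 6.45 and 8.31. The metallothioneins Mt1 (10.60 and 12.29) and Mt2A (12.06 and 13.32) bind zinc and copper. The iron and heme list held 5 of 25 members past 2-fold (20.0%, against 5.37% of all genes), with 7 below 0 and a median of 0.17. The oxidative stress and metallothionein list held 5 of 28 (17.9%), with 8 below 0 and a median of 0.16. Hemoglobin went the other way: Hbb read 10.01 and 7.62 and Hbb-b1 read 9.20 and 6.81, the 2 genes more than 4-fold lower. On the aged naive array they stood at 9.49 and 8.54, and the part of retained blood in these values was not tested.

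Signalling genes downstream of cytokines were higher in part. Of 39 JAK-STAT and NF-kappaB genes 6 were 2-fold higher (15.4%, against 5.37% of all genes), with a median of 0.41. Among them were the myeloid factor Spi1 (7.03 and 9.19), Stat3 (9.01 and 10.40), its inhibitor Socs3 (6.78 and 8.07) and Nfkbia (7.77 and 9.02). Osmr, the receptor for oncostatin M, read 6.10 and 8.80, and Igf1 read 7.62 and 10.26. Of 45 neurotrophic factors and receptors 5 were 2-fold higher (11.1%, against 5.37% of all genes), with a median of 0.13. Besides Osmr and Igf1 these were Igfbp2 (8.03 and 9.64), Met (6.58 and 8.05) and Hbegf (7.15 and 8.33). Among 34 members of the TNF superfamily 3 were 2-fold higher (8.82%, against 5.37% of all genes), 15 lay below 0 and the median was 0.08. Those 3 were the receptors Tnfrsf1a (7.20 and 9.05) and Tnfrsf1b (7.16 and 8.76) and the ligand Tnfsf13b (6.49 and 7.91). Cell death genes had 5 of 30 past 2-fold (16.7%), including Bcl2a1 (6.41 and 8.39), Ripk3 (6.04 and 7.95), the kinase of necroptosis, and Casp8 (6.37 and 7.89). For prostanoids and leukotrienes 6 of 31 were past 2-fold (19.4%), such as the thromboxane synthase Tbxas1 (5.94 and 7.97) and Alox5ap (7.58 and 9.31).

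Most housekeeping genes stayed within 2-fold. The 68 cytosolic ribosomal protein genes had 65 members above 0 and 26 at least 1.5-fold higher, with a median of 0.48. At least 2-fold higher were 3 (4.41%, against 5.37% of all genes). Rpl18 led them at 10.15 and 11.63, and Rpl22 (9.04 and 10.08) and Rplp0 (10.76 and 11.76) were just at 2-fold, a call both lost after quantile normalization. All 67 genes of the respiratory chain and ATP synthase lay within 1.5-fold, with a median of -0.09. Of 32 hypoxia and glycolysis genes only Hk2 (6.72 and 8.56), the hexokinase of induced glycolysis, was 2-fold higher, and the median was 0.03, which turned to -0.01 when array medians were made equal. The unfolded protein response had 2 of 27 past 2-fold (7.41%, near the 5.37% of all genes), Atf3 (6.76 and 8.01) and Sdf2l1 (7.58 and 8.70). On that list 10 were past 1.5-fold.

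Immediate early genes, which neurons switch on with activity and other cells with growth factors, lay on both sides. Of 31 members 4 were 2-fold higher (12.9%, against 5.37% of all genes) and 2 were 2-fold lower (against 0.283% of all genes). The median was 0.15. Zfp36, which destabilises cytokine transcripts, read 7.09 in naive tissue and 8.91 at 3 d, and Myc read 6.14 and 7.45. Ier3 (7.27 and 8.55) and Atf3 completed the 4. The lower pair comprised Npas4 (9.06 and 7.99), a factor of neurons that fire, and the nuclear receptor Nr4a2 (10.22 and 9.14). Arc (9.80 and 9.02), which is transported to active synapses, read lower in the same direction, and Fos read 7.98 and 8.16.

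Genes of striatal projection neurons, the output cells of the striatum, held 12 of the genes at least 2-fold lower, more than any other of the 60 lists at that limit. Of 21 striatal projection neuron genes 12 (against 0.283% of all genes) were past 2-fold and 18 past 1.5-fold on the lower side, all 21 lay below 0, and the median was -1.08. Rgs9, which speeds the end of dopamine signals, read 10.04 in naive tissue and 8.30 at 3 d, a difference of -1.74. The dopamine receptors Drd2 (10.28 and 8.85) and Drd1 (9.03 and 7.81), which mark the indirect and direct pathway neurons, were both lower. Adora2a (10.06 and 8.98), Ppp1r1b (10.95 and 9.67), which encodes DARPP-32, and the G protein subunit Gng7 (11.25 and 9.95) belong to the same neurons, and Penk, the enkephalin precursor, read 11.48 and 10.64. Syndig1l (8.98 and 7.34), Rxrg (8.86 and 7.40), Lrrc10b (9.84 and 8.51), Gpr101 (7.29 and 6.07) and Tac1 (9.05 and 7.67), the substance P precursor, were among the 15 largest falls taken by the naming rule. The naive arrays differed in the same list, whose median was 0.45 lower on the aged than on the young one. The striatal share of each dissected sample is not given, and its part in these differences was not tested.

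Lists for other regions held lower members and some higher ones. Slc17a6, the vesicular glutamate transporter of thalamic neurons, read 7.88 in young naive tissue and 6.36 at 3 d, and 7 of 16 thalamic genes were at least 1.5-fold lower with a median of -0.36. On the same list 4 genes lay above 0, and Rgs16, a regulator of G protein signals, read 8.02 and 9.02. Aged naive tissue stood at 8.89 for Slc17a6, above the young. On the 3 d array 3 of the 4 thalamic markers lay below the 40th percentile. Among choroid plexus and ependymal genes 6 of 20 were at least 1.5-fold lower, including Ttr (12.19 and 11.27), the carrier of thyroid hormone, Clic6 (7.95 and 7.03) and Kcnj13 (8.99 and 8.14). Ttr stood at 12.41 at 14 d. The other 14 were not, and the list median was -0.28. Of 17 hypothalamic genes 6 were at least 1.5-fold lower and 2 at least 1.5-fold higher with a median of -0.41, and the higher ones were the peptide precursors Trh (7.47 and 8.39) and Gal (7.15 and 8.02). The cholinergic choline transporter Slc5a7 read 7.66 and 6.46. Of 22 cortical genes 4 were at least 1.5-fold lower, among them Nr4a2 (10.22 and 9.14), and the median was -0.26. The glutamatergic markers Slc17a7 (11.93 and 11.90), Camk2a (12.71 and 12.44) and Neurod6 (9.58 and 9.06) lay within 1.5-fold. How much the tissue taken around an infarct and the unnamed region of naive brain differ in these structures was not tested.

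Genes common to most neurons were mostly lower by small amounts. Of 41 synaptic vesicle genes 40 lay below 0 and 10 were at least 1.5-fold lower (24.4%, against 4.08% of all genes), with a median of -0.39. Snap25 read 12.78 in naive tissue and 12.18 at 3 d, Rbfox3, which encodes NeuN, 11.07 and 10.50, and Syt2, the sensor of fast synapses, 9.48 and 8.47. Potassium channels had 18 of 62 at least 1.5-fold lower with a median of -0.47, led by the channel-interacting proteins Kcnip3 (10.79 and 9.77) and Kcnip2 (8.86 and 7.87). Of 40 glutamate and GABA receptor genes 37 lay below 0 and 7 were at least 1.5-fold lower with a median of -0.39, led by Gabrg3 (10.03 and 9.06) and Grm4 (9.15 and 8.18). Sodium and calcium channels held 9 of 37 at least 1.5-fold lower, such as Cacng2 (10.29 and 9.14) and Scn4b (10.33 and 9.33), and 1 gene 2-fold higher, Scn7a (5.49 and 7.60), an atypical channel of glia and sensory neurons. Of 25 interneuron genes 5 were at least 1.5-fold lower with a median of -0.44, including Pvalb (8.87 and 8.08) and Calb1 (9.76 and 8.97). The cytoskeleton separated its members: Nefm, a neurofilament subunit, stood at 8.80 at 3 d and differed by -1.20, whereas the tubulins Tubb6 (7.13 and 9.89), Tuba1c (9.74 and 11.67) and Tubb2b (10.03 and 11.23) were 2-fold higher. Neuropeptide precursors had a median of -0.40, yet the calcitonin gene-related peptide genes Calca (5.85 and 8.02) and Calcb (5.93 and 7.52) were 2-fold higher.

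Oligodendrocyte genes mostly differed by small amounts, and more myelin genes lay below 0 than above it. Of 22 myelin genes 14 lay below 0 and 4 were at least 1.5-fold lower (18.2%, against 4.08% of all genes). None was 2-fold lower, and the median was -0.24. The carbonic anhydrase Car2 read 11.26 in naive tissue and 10.35 at 3 d, Opalin read 9.61 and 8.81, and Mbp, the myelin basic protein gene, 12.13 and 11.86. The defining markers Mog (11.19 and 10.62) and Mobp (11.31 and 10.80) read lower as well, short of 1.5-fold. In the other direction 8 of the 22 lay above 0, including the transferrin gene Tf (11.86 and 12.51) and the tight junction gene Cldn11 (11.19 and 11.51). Among 14 precursor genes Vcan (8.21 and 9.58), a proteoglycan that reactive glia also make, was the single one past 2-fold, and Cspg4 read 7.61 and 8.49 and Pdgfra 9.15 and 9.77.

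**Figure D4:**
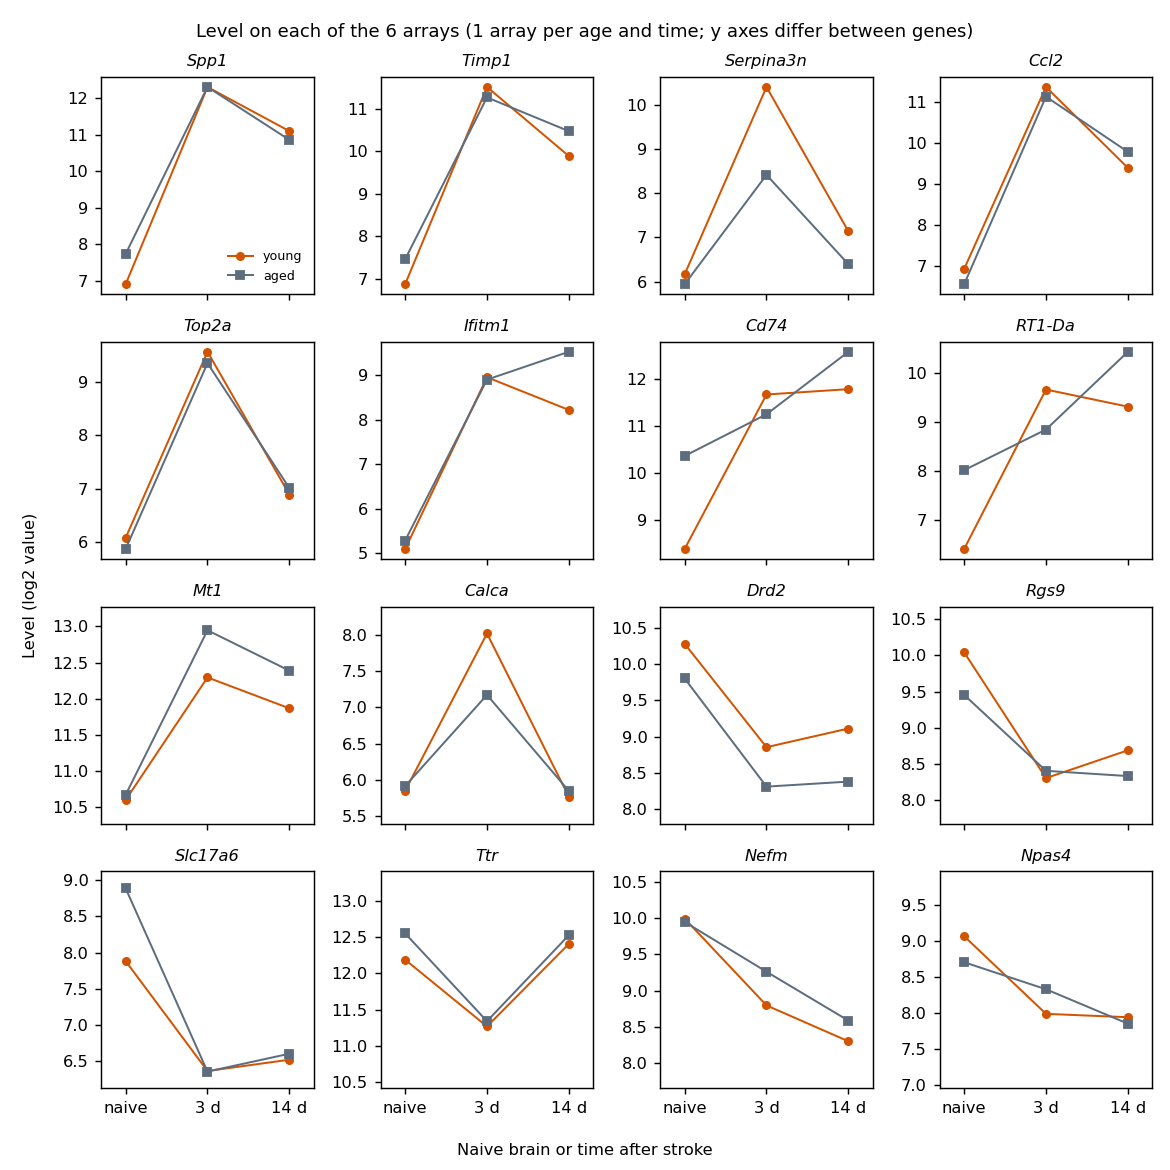
Level (y axis, log2) of 16 genes on each of the 6 arrays, by naive state or days after stroke (x axis), for young (orange circles) and aged rats (grey squares), 1 pooled array per point. Top2a peaks at 3 d in both ages (9.57 and 9.36), whereas Cd74 and RT1-Da start lower in young than in aged naive rats (8.37 and 10.36, 6.40 and 8.01).

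The same difference could be formed in aged rats from arrays that share none with the young pair. There 597 of 10947 genes (5.45%) were 2-fold higher and 74 (0.676%) 2-fold lower. Of the 760 genes higher in young rats 538 were also 2-fold higher in aged rats, which is 70.8% of the young set and 90.1% of the aged one. For the lower genes 13 were shared, or 34.2% of the young and 17.6% of the aged set. All but 1 of the 760 lay above 0 in aged rats, and all 38 lay below 0. Across 10947 genes the young and aged differences correlated at 0.883, a description over genes that share 4 libraries and are not independent. The 2 arrays at 3 d were themselves 2-fold or more apart at 14 genes (0.128%).

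Where the ages parted most, the gap lay in the naive arrays for some genes and in the stroke arrays for others. Cd74 read 8.37 in young and 10.36 in aged naive tissue and 11.67 and 11.25 at 3 d, so its difference was 3.30 in young and 0.89 in aged rats. RT1-Da and RT1-Ba had the same arrangement, at 6.40 and 8.01 and at 6.55 and 7.76 in naive tissue against 9.66 and 8.84 and 9.26 and 8.62 at 3 d. These class II genes were thus less abundant in young than in aged naive tissue and slightly more abundant at 3 d. At 14 d the young stood lower again, at 11.78 against 12.58 for Cd74, 9.31 against 10.43 for RT1-Da and 8.88 against 9.65 for RT1-Ba. Calb2, which encodes calretinin, read 7.36 and 8.56 in naive tissue and 6.74 and 6.0 at 3 d. Calb2 is also one of 4 thalamic markers, whose median was 1.01 higher on the aged than on the young naive array. Whether the naive samples differ in region was not tested. For Serpina3n the naive levels lay close together (6.16 and 5.94) and the 3 d levels apart, at 10.40 in young and 8.41 in aged rats, giving differences of 4.24 and 2.47. Fam111a, a protease gene linked to replication, also parted at 3 d, at 8.93 in young and 7.02 in aged rats, from 6.17 and 6.05. Lcn2 was reversed in order, with differences of 3.41 in young and 4.20 in aged rats, as was Mt1, with 1.70 and 2.28. At the other end of the ranking Leng8 differed by 0.12 in young and 1.11 in aged rats. The young difference became -0.12 when the probe sets of Leng8 were averaged. The age gap was not tested for any of these genes, because each rests on 4 single arrays.

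**Figure D5:**
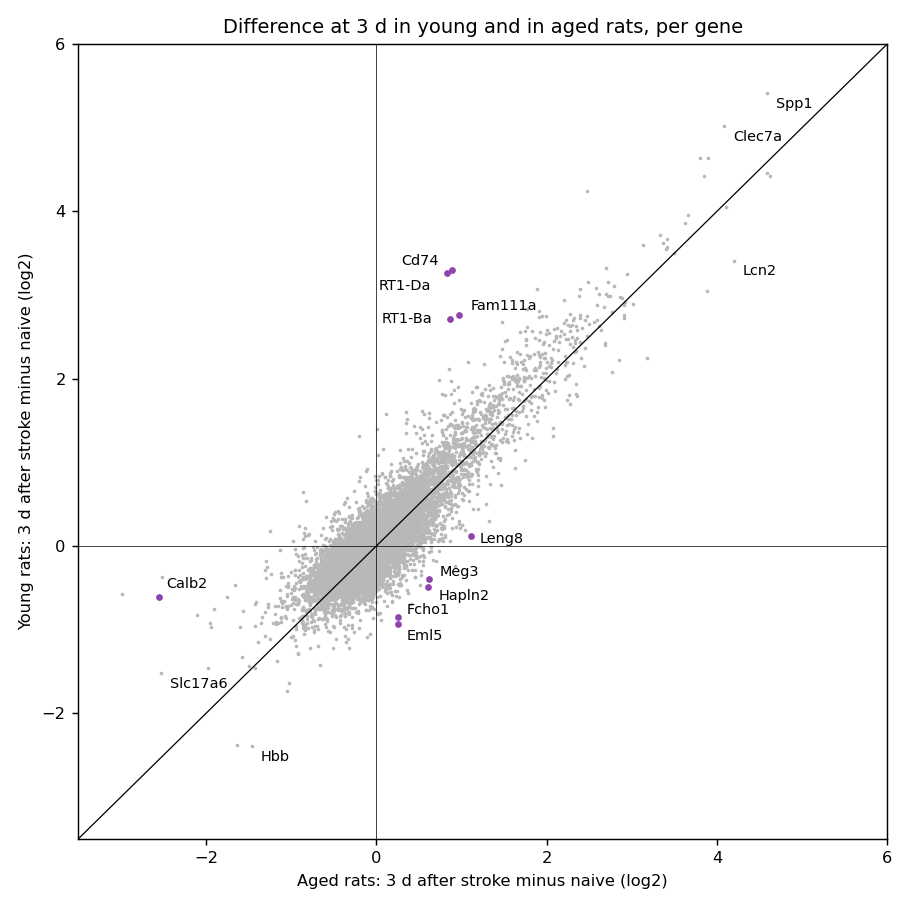
Log2 difference between 3 d after stroke and naive brain in aged rats (x axis) and young rats (y axis) for 10947 genes; the line marks equal differences and purple points are the 10 genes in which the ages differed most in either direction under the naming rule. Cd74 (3.30 in young, 0.89 in aged rats) and RT1-Da (3.26 and 0.83) lie far above the line, Leng8 (0.12 and 1.11) below it.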

How the data were processed

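Each array carried pooled, amplified and biotin-labelled RNA. For every probe set the authors deposited 1 number per array, taken here to be log2. No source states the base, which was read from the range of the numbers, and every fold rests on it. The submitters' processing notes name R 2.14.0 and affy. For background correction, summarisation and normalization, the method is not given in the sources used here. The arrays have nearly equal medians (7.09 to 7.15), so an overall change in RNA content would not be seen, and array values compress large folds. The number of arrays limits the precision. No batch or scan date is given, so batch and group cannot be told apart.

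The platform annotation gave 15209 of 28826 probe sets 1 symbol and 306 several, and it left 13311 without a name. The RefSeq gene table of GRCr8 held 15178 of the first kind, with 0 symbols changed. Differences between arrays were computed in Python 3.11.15 with pandas 2.3.3 and numpy 2.4.6, drawn with matplotlib 3.10.9, and the functions were checked on simulated data. Entries of the 60 gene lists were matched by symbol (1661) or synonym (37), and 226 were unmatched. The comparison and the lists were chosen with earlier results of these data known.

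The rule for named genes took those at or above the array median on at least 1 of the 2 arrays: the 15 largest differences each way, up to 4 per list, the 5 highest and 5 lowest for young minus aged, and cell type markers, passing over 12 genes with locus-style or olfactory names. Other genes, such as Il1b, C1qa, C1qb, C3, Tap1, Psmb8, B2m, Vim, Nes, Kdr, Vegfa, Hbegf, Npas4, Arc, Fos, Ifitm2 and Gbp2, were chosen after their values were seen. Alternatives were quantile normalization, equal array medians, no filter, the 60th percentile, a filter on the mean of the 2 arrays, the mean of probe sets and a 3-fold limit.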

Additional observations from a re-analysis of the deposited data

Results flagged for a closer look

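In 5 named genes the young and the aged pools differed from naive tissue in opposite directions, by at least 1.5-fold in one age and by more than 0.09 in the other. Smaller opposite differences were not counted, and none of these differences was tested. Trh, the precursor of thyrotropin-releasing hormone, differed by 0.92 in young rats and -0.11 in aged rats, with 7.47 in young naive tissue, 8.39 at 3 d and 6.68 at 14 d. Eml5, a microtubule-associated protein gene, differed by -0.93 in young and 0.25 in aged rats. Fcho1, an early factor of clathrin-coated pits, differed by -0.85 and 0.25. Hapln2, a link protein of the matrix at nodes of Ranvier, differed by -0.49 and 0.60. Meg3, an imprinted noncoding RNA, differed by -0.40 and 0.61.

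Outside the named genes, 7249 probe sets with several symbols or none passed the filter. Of these 244 (3.37%) were 2-fold higher in young rats 3 d after stroke and 50 (0.69%) were 2-fold lower, while 18 were 2-fold apart between the naive arrays.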

How the results depend on the processing

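At a 3-fold limit 342 genes were higher and 4 lower, against 760 and 38 at 2-fold. Both counts stayed within 1.5 times the reported ones under the other 6 alternatives, at 665 to 779 higher and 29 to 50 lower. Among the 233 genes taken by the naming rule, none past 1.5-fold changed sign under quantile normalization, equal array medians or the mean of probe sets. Of 152 named genes past 2-fold, 147 remained so after quantile normalization, 148 with equal array medians and 151 with the mean of probe sets. Filters moved list medians most often: the 40th percentile, an alternative added after the data were seen, moved 15 of 60 by more than 0.09, and the 60th percentile 30. The filters count stroke arrays, so members high only after stroke can pass them and filtered medians lean upward for such lists. No paired analysis was possible because each group is 1 pooled array without a replicate number. For the same reason no replicate could be left out.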

Other observations

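Of the 760 genes at least 2-fold higher, 460 were on none of the 60 lists, and the following were picked from them after their values were seen. Ptprc, which encodes the pan-leukocyte phosphatase CD45, read 6.14 in young naive tissue and 9.29 at 3 d. The integrin chain Itgb2 (7.49 and 10.13), the actin bundler Lcp1 (8.06 and 11.01), the adaptor Fcer1g (9.01 and 11.58) and the cytokine receptor chain Csf2rb (6.27 and 9.24) were also higher. Apobec1, an RNA-editing deaminase, read 5.94 and 9.66, and Ifi30, a lysosomal thiol reductase that prepares antigens, read 7.08 and 10.40. The inhibitory receptor Lilrb4 read 5.80 and 8.84, the folate receptor Folr2 of macrophages 7.52 and 10.41, and the sialic acid-binding lectin Siglec1 6.38 and 8.80. Several stood lower again at 14 d, as Folr2 at 8.49 and Lilrb4 at 7.06, while Itgb2 stood at 10.32.

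Other genes off the lists belong to no single cell type. A2m, a broad protease inhibitor, read 7.42 in naive tissue and 10.25 at 3 d. The steroid-oxidising Cyp1b1 read 6.18 and 9.26, the galectin Lgals1 8.74 and 11.37, and Clic1 6.92 and 9.91. The mitotic kinase Nek2 read 6.06 and 8.62, with 6.20 at 14 d. On the lower side 14 of the 38 genes were on no list. Among them Spock3, a testican proteoglycan, read 10.65 and 9.50, the calcium-binding Necab2 read 9.63 and 8.54, the peptidase Mme, which degrades enkephalin and amyloid beta, read 8.24 and 7.14, and the serotonin receptor Htr1d read 8.40 and 7.28.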
